A study of Homo sapiens with 5 samples.

Results

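Heat shock genes, 10 in number, were examined for the places where Nrf2 and HIF1α were bound in BEAS-2B cells, an immortalized line of human bronchial epithelial cells. The 10 genes, out of 20163 protein-coding genes in the annotation, were HSPA1A, HSPA1B, HSPA8, HSPH1, DNAJB1, HSP90AA1, HSPD1, HSPE1, HSPB1 and HSF1. A peak, which is a stretch of the genome enriched by chromatin immunoprecipitation and sequencing (ChIP-seq), was assigned to a gene when it touched the gene body or the 50 kb on either side. Cells had been serum-starved overnight and were then kept without inorganic arsenic (iAs) as the control, or with 1 μM iAs for 6 h. Each antibody, Nrf2 or HIF1α, and each condition was represented by 1 library, so there were 4 peak lists and no replicate to give a spread or a test. The lists hold the edges of each peak on hg19 and neither a height nor a score, and the read depth behind them is unknown. The input library was not analysed here on its own.

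Heat shock proteins are chaperones that keep other proteins folded, and arsenite is a classical inducer of their genes. The master regulator of that response is HSF1, which forms trimers under proteotoxic stress and binds heat shock elements, inverted repeats of the unit GAA, in the promoters of its targets. Nrf2 drives the antioxidant response and HIF1α the response to low oxygen. HSPA1A and HSPA1B encode the stress-inducible Hsp70, HSPA8 its constitutive relative Hsc70, DNAJB1 an Hsp40 that hands clients to Hsp70, and HSPH1 the Hsp110 that exchanges its nucleotide. HSP90AA1 encodes the inducible Hsp90α, HSPD1 and HSPE1 the mitochondrial Hsp60 and Hsp10, and HSPB1 the small chaperone Hsp27.

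In iAs-treated cells HIF1α peaks stood within 1 kb of the start site of 8 of the 10 genes, against 42.6% of all protein-coding genes, and in control cells of 1 gene, HSPH1, against 16.7%. None of these HIF1α peaks with iAs overlapped a HIF1α peak of the control cells. Over the whole HIF1α list with iAs, 75.2% of peaks overlapped none, a share not computed for start-site peaks alone. Nrf2 had a peak within 1 kb of the start of 1 gene, HSPA1B, in both conditions, against 2.32% of all genes in control cells and 5.17% with iAs. HSPA1A and HSPA1B were the 2 genes without a HIF1α peak at their start in either condition. These counts describe 1 library each and were not tested. HSPD1 and HSPE1 share their HIF1α peaks and are not independent in them.

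The promoters of 4 genes carried an exact match to 3 heat shock units in a row. Their sequences are shown because they give the position of the peaks relative to the site that HSF1 is known for. The search was for 3 units of GAA in alternating orientation, each 5 bp after the last, in the 300 bp upstream of the start. No mismatch was allowed, so an element with an altered letter in a unit was not counted. It found a match in HSPA8, HSPH1, HSP90AA1 and HSPD1, against 0.407% of the 20163 promoters of the same length. The stretches below are from hg19, on the strand of the gene and 5′ to 3′, with the units in capitals.
HSPA8 chr11:122933044-122933104: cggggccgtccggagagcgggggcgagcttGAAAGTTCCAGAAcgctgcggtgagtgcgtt
HSPA8 chr11:122932879-122932907: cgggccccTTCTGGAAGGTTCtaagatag
HSPH1 chr13:31736065-31736130: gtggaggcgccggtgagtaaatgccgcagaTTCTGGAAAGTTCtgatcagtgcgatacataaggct
HSP90AA1 chr14:102553427-102553499: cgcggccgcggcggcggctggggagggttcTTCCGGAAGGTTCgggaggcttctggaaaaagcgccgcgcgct
HSPD1 chr2:198364786-198364815: ggcattTTCTGGAAAGTTCTGGAAccgagc
In these promoters the first capital lay 230 bp upstream of the HSPA8 start and 55 bp upstream for its second match, 59 bp upstream for HSPH1, 88 bp for HSP90AA1 and 245 bp for HSPD1. The HSPD1 run is 4 units long, so it holds overlapping matches. The stretches shown for HSPD1 and for the second HSPA8 match lay wholly in annotated untranslated bases of transcripts other than the canonical one.

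HIF1α peaks with iAs lay over the elements of HSPA8, HSPH1 and HSPD1 and not over that of HSP90AA1. Positions below are counted from the start of the canonical transcript, which is base 0, with negative values upstream. HSPA8, on the minus strand of chromosome 11 with its start at 122932844, had 3 HIF1α peaks with iAs and no other peak of any library within 50 kb. The widest, chr11:122932807-122933477, was 671 bp wide, ran from -633 to 37 and so held the start and both elements. A peak of 222 bp (chr11:122933596-122933817) was centred at -862, and one of 257 bp (chr11:122932419-122932675) at 297 in intron 1. The 222 bp peak lay inside the annotated gene, whose outermost 5′ end is 122933938. Gaps of 131 bp and 118 bp separated the 3 intervals. HSPA8 was the only one of the 10 genes with 3 HIF1α peaks within 1 kb of its start, and 1.14% of all genes had 3 or more in that library.

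HSPH1, on the minus strand of chromosome 13 with its start at 31736041, had a HIF1α peak at its start region in both conditions, at different places. The control peak (chr13:31736305-31736640) was 336 bp wide and centred at -431. It held 31736525, the outermost annotated 5′ end of the gene. With iAs the peak was 293 bp wide (chr13:31735820-31736112), ran from -71 to 221 and covered the canonical start together with the heat shock element. The 2 intervals did not touch, with 192 bp between them. The other HIF1α peaks assigned to HSPH1 with iAs, of 282 bp and 451 bp, were centred at -38.0 kb and -38.7 kb, at the start of B3GLCT, at -40 and 652 from that gene's own start.

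HSPD1 and HSPE1 face away from each other on chromosome 2, and HIF1α with iAs had a peak at each of them. HSPD1 starts at 198364564 on the minus strand and HSPE1 at 198365103 on the plus strand. The peak chr2:198363974-198364887 was 914 bp wide, which is wider than 95.2% of the peaks in its library and the widest HIF1α peak at any of the 10 genes. It ran from -323 to 590 of HSPD1, covering the start and the 4 units, and ended 216 bp short of the HSPE1 start. It also held 198364864, the outermost annotated 5′ end of HSPE1. A peak of 278 bp (chr2:198365161-198365438) lay in intron 1 of HSPE1, centred at 196, after a gap of 273 bp. Neither was called in control cells or with the Nrf2 antibody. The remaining HIF1α peaks with iAs in these windows were at the starts of COQ10B (393 bp, at -46.6 kb from HSPE1) and of MOB4 (626 bp, at 15.6 kb). The MOB4 peak, chr2:198380431-198381056, also lay inside the annotated body of HSPD1, whose outermost 5′ end is 198381461.

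HSP90AA1, on the minus strand of chromosome 14 with its start at 102553381, had the smallest set of peaks. A HIF1α peak of 242 bp with iAs (chr14:102553853-102554094), from -713 to -472, was the only peak of any library within 50 kb. It ended upstream of the heat shock element, which starts at -88. Among the 8 genes with a HIF1α peak at the start, this was the one whose peak came no closer than 200 bp to it.

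At DNAJB1, HSPB1 and HSF1 the HIF1α peak with iAs lay downstream of the start or across it. DNAJB1 (chromosome 19, minus strand, start 14629209) had a peak of 465 bp, chr19:14628714-14629178, from 31 to 495 and centred in intron 1. HSPB1 (chromosome 7, plus strand, start 75931990) had a peak of 368 bp, chr7:75931932-75932299, from -58 to 309, covering the start and centred in coding exon 1. After a gap of 79 bp there followed a peak of 242 bp in intron 1, chr7:75932379-75932620. HSF1 (chromosome 8, plus strand, start 145515286) had a peak of 529 bp, chr8:145515338-145515866, from 52 to 580 and centred in intron 1. The 3 genes had no HIF1α peak within 1 kb of the start in control cells.

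**Figure D1:**
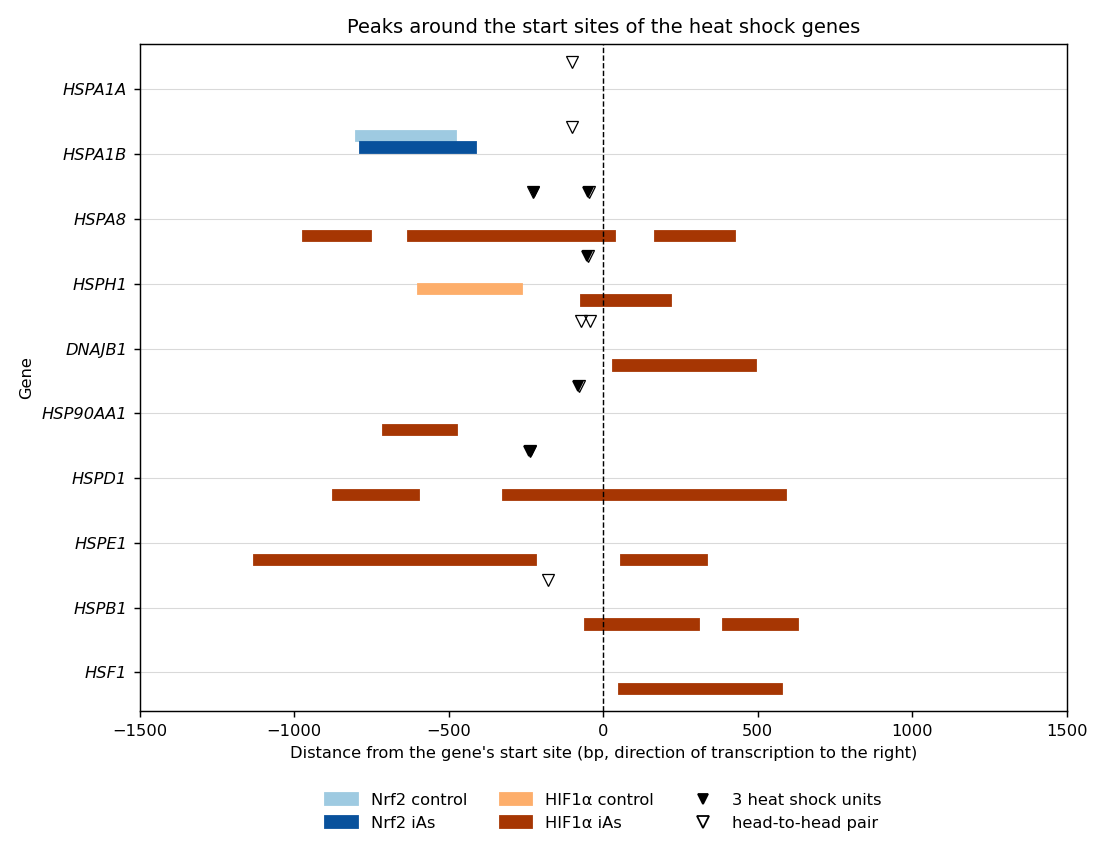
Peaks within 1.5 kb of the start site of each gene, with distance from the start site in bp on the horizontal axis, genes on the vertical axis, bars for peaks coloured by library, and triangles for heat shock matches in the 300 bp upstream. The HIF1α peaks with iAs sit at 8 of the 10 genes and cover the start of 4, HSPA1A has no peak in this window, and filled triangles (3 units) fall inside a bar at HSPA8, HSPH1 and HSPD1.

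Across the 10 genes, the 11 HIF1α peaks with iAs within 1 kb of a start were between 222 bp and 914 bp wide with a median of 293 bp, beside a median of 340 bp over the whole library. The start base itself lay inside a HIF1α peak with iAs at 4 genes, HSPA8, HSPH1, HSPD1 and HSPB1, against 24.4% of all genes. It lay inside no Nrf2 peak at any of the 10. At 4 genes 2 or more such peaks stood within 1 kb of the start (HSPA8, HSPD1, HSPE1 and HSPB1), against 9.72% of all genes. HSPD1 and HSPE1 share their 2 peaks and are not independent in this count. Counting 2 or 3 peaks per start was chosen after the values had been seen.

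By condition, the HIF1α start-site peaks fell as follows. A peak within 1 kb of the start with iAs and none in control cells was found at 7 of the 10 genes and at 27.7% of all genes. HSPH1 had one in both conditions, as did 14.8% of all genes. None of the 10 had one in control cells only, a state seen at 1.85% of all genes. HSPA1A and HSPA1B had one in neither condition, like 55.6% of all genes. Asked instead for a start-site peak with iAs that overlaps no HIF1α peak of the control cells, 8 of the 10 genes qualified, since the HSPH1 intervals do not touch, against 31.1% of all genes. For Nrf2 no gene of the 10 had such a peak, against 3.24% of all genes. HSPD1 and HSPE1 share their HIF1α peaks and are not independent in these counts.

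The letters searched in the 11 HIF1α start-site peaks with iAs were counted beside the same letters in the HIF1α start-site peaks of all genes. The run of 3 heat shock units was present in 3 of the 11 (27.3%), against 0.440% of the 9556 HIF1α peaks with iAs at the starts of all genes. The palindrome GAANNTTC, a head-to-head pair of units, was in 5 of 11 (45.5%) against 4.87%, with DNAJB1 and HSF1 beside the 3 genes already named. Its counterpart TTCNNGAA, which overlaps it in every run of 3 units, was in 3 of 11 against 6.58%. The hypoxia core ACGTG, the letters that HIF1 is known to bind, was in 4 of 11 (36.4%) against 35.0%, and GCGTG in 6 of 11 (54.5%) against 63.1%. CCAAT was in 6 of 11 against 24.3%, and GATGGCG in 1 of 11 against 10.6%. The AP-1 core TGACTCA was in none of the 11 and in 2.91% of all, and the antioxidant core TGACNNNGC in 3 of 11 against 19.1%. All letters were searched on both strands, and a match describes the sequence without showing that a factor sat on it. The genes were chosen as heat shock genes and 4 of the 10 promoters (40.0%) hold the run of 3 units whatever the peaks, so its share in the peaks is a description of these promoters and no result about HIF1α. None of these shares was tested, and peak width was not matched.

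HSPA1A and HSPA1B are a tandem pair on the plus strand of chromosome 6, starting at 31783320 and 31795515. Both promoters carry the head-to-head pair GAANNTTC, as did 8 of the 10 genes and 5.86% of all promoters, and the stretches around it are shown because no peak of any library overlapped them. The capitals mark the pair.
HSPA1A chr6:31783184-31783251: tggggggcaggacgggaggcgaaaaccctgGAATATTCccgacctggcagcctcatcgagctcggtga
HSPA1B chr6:31795380-31795447: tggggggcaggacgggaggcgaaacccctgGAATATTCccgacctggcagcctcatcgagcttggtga
DNAJB1 chr19:14629220-14629316: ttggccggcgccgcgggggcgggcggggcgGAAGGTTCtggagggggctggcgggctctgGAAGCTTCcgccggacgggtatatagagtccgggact
HSPB1 chr7:75931778-75931845: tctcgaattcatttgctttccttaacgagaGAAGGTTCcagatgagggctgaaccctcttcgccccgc
DNAJB1 and HSPB1 are shown with them because their HIF1α peaks with iAs began downstream of these pairs. With HSPA8, HSPH1, HSP90AA1 and HSPD1 above, these are the 8 promoters with a pair, and HSPE1 and HSF1 had none in 300 bp. For HSPE1 that limit cuts through the run shown for HSPD1, which lies between the 2 starts. The middle bases of its matches to 3 units lay at -305 and -300 from the HSPE1 start.

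The copies of HSPA1A and HSPA1B are so alike that reads from one could not always be told from the other. Their coding sequences were identical at 1919 of 1923 bases (99.8%) and encode the same protein. The 300 bp upstream of the starts were identical at 280 positions (93.3%) when aligned with a shift of 1 bp. Runs of at least 50 bases that recur elsewhere in the genome filled 39.6% of the 1 kb on each side of the HSPA1A start and 39.7% at HSPA1B, against 0 to 11.4% at the other 8 genes. The long repeated run, of 1715 bases, began 208 bp after the HSPA1A start and 207 bp after that of HSPA1B, and no such run lay in the 300 bp upstream. Over all genes, a HIF1α start-site peak with iAs was called at 47.7% of the 11430 genes with no repeated run in this window, at 40.0% of the 7737 with up to 50% and at 3.82% of the 996 above 50%. Whether repeated sequence took part in the absence of HIF1α peaks at these 2 starts was not tested.

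Nrf2 was bound around HSPA1B at 3 places in both conditions. The nearest peak was upstream of the promoter. Its width was 323 bp in the control (chr6:31794715-31795037, from -800 to -478) and 377 bp after iAs (chr6:31794728-31795104, from -787 to -411). It held neither TGACTCA nor TGACNNNGC, and no HIF1α peak overlapped it. From the HSPA1B start its centre lay at -639 in the control and -599 with iAs. The start of the long noncoding RNA ENSG00000289829 was nearer, with the centre at 344 and 304 from it. Between the genes, a control peak of 813 bp (chr6:31789897-31790709) was centred at -5.21 kb from the HSPA1B start. The iAs-treated cells had a peak of 1578 bp there (chr6:31789399-31790976), 1.94 times as wide. The latter was wider than 98.6% of the Nrf2 peaks with iAs, and 4.75% of it was repeated sequence. A HIF1α peak with iAs of 188 bp, the minimum width in that library, lay inside it (chr6:31789482-31789669) and had no control counterpart. Between 7.02 kb and 7.37 kb downstream of the HSPA1B start, by the start of the long noncoding RNA SNHG32, Nrf2 peaks measured 344 bp in the control and 644 bp after iAs, and HIF1α peaks 256 bp and 457 bp. This was the only place at the 10 genes with a peak in all 4 libraries, although the 2 control peaks did not overlap each other.

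The sequences of the last 2 places, and of an Nrf2 peak downstream of HSPB1, are given because they hold the cores that Nrf2 and AP-1 factors are known to use. The stretches are on the plus strand of hg19 and the capitals mark TGACTCA or TGACNNNGC, on either strand.
HSPA1B upstream chr6:31789963-31790031: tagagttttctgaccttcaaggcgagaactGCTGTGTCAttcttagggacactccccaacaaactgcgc
HSPA1B downstream chr6:31802882-31802984: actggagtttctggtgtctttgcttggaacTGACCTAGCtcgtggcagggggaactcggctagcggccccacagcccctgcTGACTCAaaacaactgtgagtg
HSPB1 downstream chr7:75970109-75970177: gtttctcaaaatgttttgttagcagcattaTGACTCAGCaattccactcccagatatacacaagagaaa
The match upstream of HSPA1B lay inside the control and the iAs peak of Nrf2, which also held 2 head-to-head heat shock pairs. The matches downstream lay in the Nrf2 peak with iAs and the HIF1α control peak, and outside the Nrf2 control peak, whose edge at 31802708 falls short of them. The HIF1α peak with iAs held the TGACNNNGC match there and not the TGACTCA match. The HSPB1 stretch belongs to an Nrf2 peak 38.1 kb downstream of HSPB1, with a width of 352 bp in the control (chr7:75969926-75970277) and 522 bp after iAs (chr7:75969941-75970462). It lies closer to YWHAG, 18.1 kb into that gene with iAs, and between 10.3% and 15.3% of it was repeated sequence. These stretches were chosen for their cores, so the counts over all Nrf2 peaks at the 10 genes are given too. TGACTCA was in 1 of the 5 peaks of the control (20.0%) and 2 of the 6 after iAs (33.3%), against 58.4% and 51.5% of the whole libraries. TGACNNNGC was in 3 of 5 (60.0%) and 4 of 6 (66.7%), against 51.3% and 44.2%. These include the Nrf2 peaks at the start of VARS1, which held 2 matches to TGACNNNGC and none to TGACTCA in each condition.

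**Figure D2:**
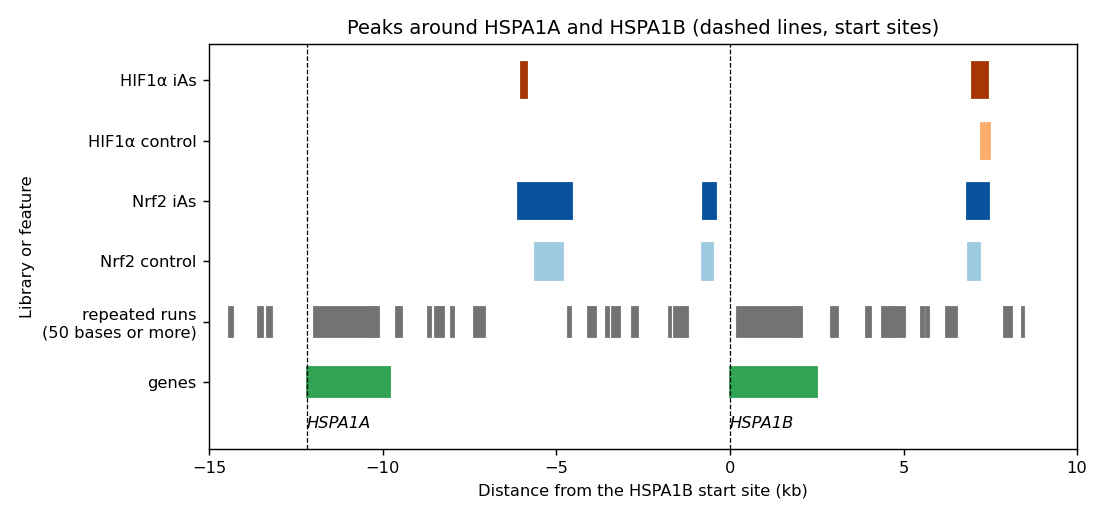
Peaks of the 4 libraries around HSPA1A and HSPA1B, with distance from the HSPA1B start in kb on the horizontal axis and 1 row each for the libraries, for runs of 50 or more bases that recur elsewhere in the genome, and for the genes. Nrf2 peaks stand at 3 places in both conditions, none of them over the start of HSPA1A or HSPA1B, and the widest is the 1578 bp peak with iAs between the genes.

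The remaining peaks in the HSPA1A and HSPA1B windows belonged to neighbours. At the start of VARS1, a valyl-tRNA synthetase gene, Nrf2 peaks of 802 bp and 788 bp in control and iAs-treated cells overlapped a HIF1α peak of 656 bp found with iAs. HIF1α peaks with iAs of 310 bp, 211 bp and 272 bp lay near the starts of LSM2 and NEU1. An Nrf2 peak of 181 bp near NEU1 was the only one of the 6 Nrf2 peaks with iAs that overlapped no Nrf2 peak of the control cells, against 62.0% of that whole library. At each of the 5 places where Nrf2 was called in both conditions the pair of widths was thus 802 and 788, 813 and 1578, 323 and 377, 344 and 644, and 352 and 522 bp, wider with iAs at 4 of them. Over the whole libraries the median was 309 bp in the control and 333 bp after iAs. These medians include peaks without a counterpart in the other condition, 62.0% of the list with iAs, so they are no background for the paired widths. How often Nrf2 peaks called in both conditions were wider with iAs over the whole libraries was not computed.

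The wider window of 50 kb took in peaks away from the starts. An Nrf2 peak was within 50 kb of 3 of the 10 genes (HSPA1A, HSPA1B and HSPB1) in control cells, against 20.0% of all genes, and of the same 3 with iAs, against 35.0%. HIF1α had one at 5 genes in control cells (HSPA1A, HSPA1B, HSPH1, DNAJB1 and HSF1), against 45.5%, and at all 10 with iAs, against 68.6%. In number of distinct peaks this was 5 of 3204 for Nrf2 in control cells, 6 of 7743 with iAs, 5 of 6008 for HIF1α in control cells and 34 of 12826 with iAs. Of the 34, 30 overlapped no HIF1α control peak, a state shared by 75.2% of that library. The 4 that did lay at SNHG32, GIPC1, NDUFB7 and DGAT1. HSPA1A and HSPA1B share all their peaks, as do HSPD1 and HSPE1, so the counts of genes are not independent.

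Many of these peaks had their centre nearer to the start of another protein-coding gene. Of the 34 HIF1α peaks with iAs, 20 were, and 14 were nearest to one of the 10 genes, with the read-through transcript HSPE1-MOB4, whose start is 34 bp from that of HSPE1, counted as HSPE1. HSF1 had the most HIF1α peaks with iAs in its window, 10, of which 9 were centred 35.1 kb or more downstream of its start, at DGAT1, SCRT1, TMEM249, FBXL6 and SLC52A2. At DNAJB1, HIF1α peaks at GIPC1 measured 248 bp in the control and 245 bp after iAs, and at NDUFB7 222 bp and 432 bp. All HIF1α peaks assigned to HSPA8, HSP90AA1 and HSPB1 with iAs were nearest to these genes among the protein-coding ones, the farthest being a peak of 232 bp at 15.6 kb downstream of the HSPB1 start. Starts of long noncoding RNAs were closer in some cases. That HSPB1 peak was centred at -2 from the start of ENSG00000289059. At HSPA8 the peaks of 671 bp and 222 bp were centred at -221 and 343 from the start of ENSG00000288061. The Nrf2 peaks of 813 bp and 1578 bp upstream of HSPA1B were centred at -562 and -446 from the start of ENSG00000289637. The HIF1α peak of 188 bp inside the wider one was centred at 166 from it.

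**Figure D3:**
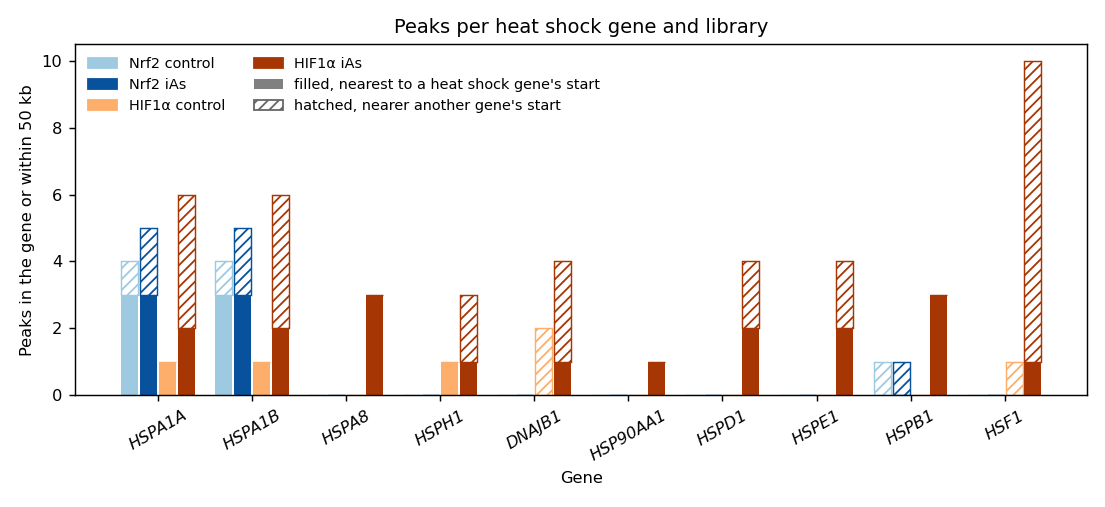
Number of peaks in each gene or within 50 kb of it (vertical axis) for the 10 genes (horizontal axis), with 1 bar for each library, filled for peaks nearest to the start of a heat shock gene and hatched for those nearer another gene. HSPA1A and HSPA1B share their peaks, as do HSPD1 and HSPE1, and at HSF1 the bar of 10 HIF1α peaks with iAs is hatched but for 1.

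For comparison, 32 related genes were searched in the same way, covering other HSPA, HSP90, DNAJ and small heat shock genes, other heat shock factors, and co-chaperones. HIF1α had a peak within 1 kb of the start of 20 of them with iAs (62.5%), against 42.6% of all genes. In control cells it had one at 6 (18.8%), against 16.7%. In 16 the start-site peak with iAs overlapped no control peak. Nrf2 had a start-site peak at 3 of them in each condition (9.38%), against 2.32% of all genes in control cells and 5.17% with iAs. At none did the Nrf2 peak with iAs lack an overlapping control peak, against 3.24% of all genes. Within 50 kb the Nrf2 counts were 10 in control cells (31.2%) and 12 with iAs (37.5%), against 20.0% and 35.0% of all genes. The HIF1α counts were 18 (56.2%) and 26 (81.2%), against 45.5% and 68.6%. HSPA1L, one of the 32, had the same number of peaks within 50 kb in each library as HSPA1A and HSPA1B. The related genes may thus not be independent of the 10.

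Of the 4 related genes with Nrf2 at the start in either condition, 3 also had a HIF1α peak there. HSPA9, which encodes the mitochondrial Hsp70, carried peaks of all 4 libraries over or beside its start, of 1012 bp and 1023 bp for Nrf2 and of 976 bp and 956 bp for HIF1α in control and iAs-treated cells. At HSP90AB1, the constitutive relative of HSP90AA1, an Nrf2 peak in intron 1 measured 189 bp in the control and 539 bp after iAs. HIF1α peaks of 341 bp and 481 bp were found there with iAs. HSP90B1, the Hsp90 of the endoplasmic reticulum, had an Nrf2 peak of 235 bp upstream of its start in control cells only, and HIF1α peaks of 386 bp and 456 bp in control and iAs-treated cells. At DNAJB4 iAs-treated cells had a 1299 bp Nrf2 peak centred at -1363, which shared bases with a control peak of Nrf2, and no HIF1α peak within 50 kb. HSPA5, the endoplasmic reticulum Hsp70, had no peak at its start and 2 HIF1α peaks with iAs within 50 kb. HSPA4L, HSPA13 and AHSA1 had no peak of any library within 50 kb.

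**Figure D4:**
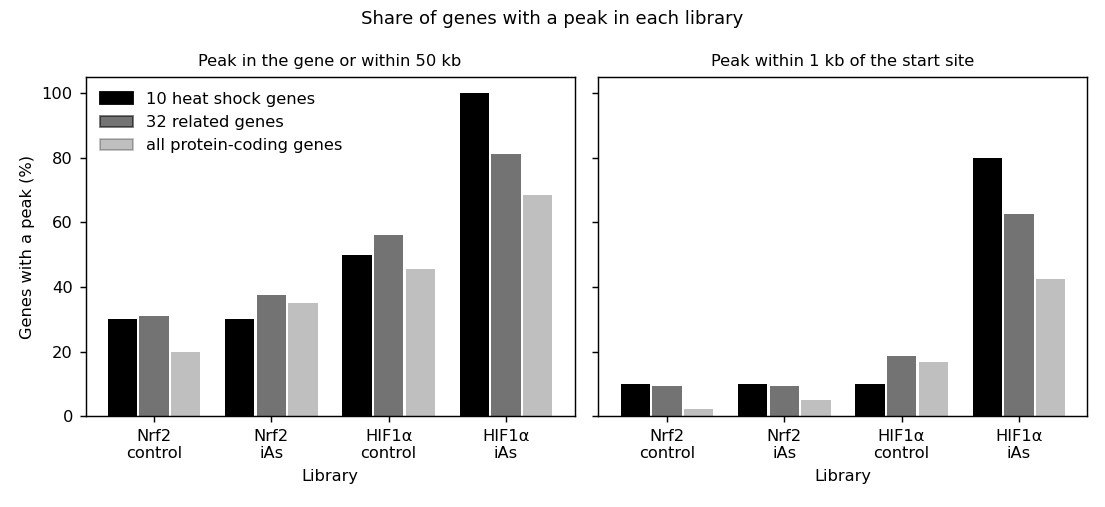
Share of genes with a peak (vertical axis, percent) in each library, on the left in the gene or within 50 kb and on the right within 1 kb of the start site, for the 10 heat shock genes, the 32 related genes and all protein-coding genes. With iAs the HIF1α bars at the start sites reach 62.5% for the related genes and 42.6% for all genes, below the bar for the 10 genes, and the bars carry no error because each library was made once.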

How the data were processed

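ChIP-seq peaks of Nrf2 and HIF1α were taken from 4 lists, 1 per antibody and condition. The authors aligned the reads, down-sampled tags to the sample with the fewest and called peaks. The submitters' processing notes name BWA and MACS2 2.1.0, and the methods name MACS or SICER without saying which was used here. The deposited values are base positions on hg19, not counts. The methods name Active Motif antibodies, whereas the labels name Santa Cruz (Nrf2) and Abcam (HIF1α).

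Starts were changed from 0-based to 1-based positions. All 29781 peaks lay within their chromosomes. Genes and canonical start sites came from GENCODE release 44 on GRCh37, which is hg19. An overlap of 1 bp or more counted as shared. Peaks were given to a gene within 50 kb of its body, and start-site peaks lay within 1 kb of the start. Motifs were searched on both strands, and runs of at least 50 bases occurring more than once in the genome were marked as repeated. Sequence stretches were cut at annotated untranslated bases or held to 30 bases there.

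Python 3.11.15, NumPy 2.4.6, Numba 0.67.0 and Matplotlib 3.10.9 were used, and the steps were tested on simulated data. The 10 genes, the related genes, motifs and distances were chosen with earlier results of these data known. Genes were named if they were among the 10, or, from the 32 related genes, if they had an Nrf2 peak at the start or no peak at all, with HSPA5 and HSP90AB1 always named, and neighbours were named where a peak was nearer to their start. No test was made, because each group had 1 library. Alternatives were distances of 10 kb and 2 kb from the gene and of 200 bp and 3 kb from the start, the wider 50% of peaks, equal numbers of the widest peaks, any transcript's start, a reciprocal overlap of 50% and a gap of 1 kb.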

Additional observations from a re-analysis of the deposited data

How the results depend on the processing

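Of 50 alternative values for the counts above, 30 stayed within 1.5 times the reported count and 20 were lower than that. With a distance of 10 kb, 2 genes had a HIF1α control peak, 0 Nrf2 and 14 HIF1α peaks with iAs lacked a control overlap, and the peaks numbered 3, 3, 2 and 15 for Nrf2 control, Nrf2 iAs, HIF1α control and HIF1α iAs. Within 2 kb, 1 gene each had a peak of Nrf2 in control cells, of Nrf2 with iAs and of HIF1α in control cells. Within 200 bp of the start, 0 genes had a peak of each of these 3 libraries, whereas 7 had a HIF1α peak with iAs. With the wider 50% of peaks, HIF1α control peaks were left at 1 gene and numbered 1, and HIF1α peaks with iAs numbered 14. With 3204 widest peaks from each list, HIF1α had 1 control peak at 1 gene, and with iAs 6 peaks at 6 genes. Fewer peaks or a smaller window enter by construction in all of these.

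Leaving out a library was not possible with 1 per group. No paired analysis was possible because no group had replicates. Without heights or depth, a missing peak cannot be told apart from one just under the calling threshold.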
